A study of Mus musculus with 20 samples.

Results

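A set of 7 genes that mark tuft cells was looked for among the genes counted in the proximal colon (PC), namely Dclk1, Trpm5, Pou2f3, Avil, Il25, Alox5ap, and Sh2d6, and 5 of these 7 had a row in the table of 12701 genes. Pou2f3 and Il25 were not analysed here. The genes were listed by name as tuft cell genes and were matched to the table by their Ensembl gene identifiers. RNA came from a segment of PC from mice of the inbred strain C57BL/6, carrying no added or deleted gene. From 3 weeks of age every mouse received a diet called Total Western (TWD), built on nutrient intakes in the United States, for 6 weeks. Groups then ate the TWD with 0, 2, 5, or 10% raw potato starch for 3 more weeks, so that the 0% group stayed on the TWD alone. Raw potato starch is called resistant potato starch (RPS) below, since much of it escapes digestion and feeds bacteria further down the gut. Each of the 4 diets had 5 libraries, with 20581013 to 35083751 counts per library and a median of 26354926.5. The labels give each library its own number but do not state that each is a separate mouse, so p values measure the spread between libraries.

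Tuft cells are rare chemosensory cells of the intestinal epithelium. They sense luminal metabolites through G protein-coupled receptors and a taste-like cascade that ends in calcium release and the opening of the cation channel Trpm5, and they answer with interleukin 25 (Il25), acetylcholine, and lipid mediators such as cysteinyl leukotrienes and prostaglandins. In the small intestine, this signal reaches innate lymphoid cells whose interleukin 13 returns to the stem cells and raises the number of tuft and goblet cells. Pou2f3 is the transcription factor that tuft cells need to form, Dclk1 is a microtubule-associated kinase widely used as their marker, Avil encodes the actin-bundling protein advillin of their microvilli, Sh2d6 encodes an adaptor protein with an SH2 domain, and Alox5ap encodes the protein that presents arachidonic acid to 5-lipoxygenase (Alox5) for leukotriene synthesis. Dclk1 is also expressed by neurons, and Alox5ap and Alox5 by myeloid and mast cells. The PC segment was measured as bulk tissue, in which fewer tuft cells and less RNA of these genes per cell cannot be told apart.

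All 5 genes are protein-coding in GENCODE on the assembly GRCm39. Sh2d6 (ENSMUSG00000052631) lies at chr6:72490624-72498690 on the minus strand, with no other gene in that interval. Trpm5 (ENSMUSG00000009246) lies at chr7:142622890-142648379 on the minus strand and shares exon bases with Tssc4 on the opposite strand, and Avil (ENSMUSG00000025432) lies at chr10:126836578-126856863 on the plus strand and shares exon bases with Tsfm on the opposite strand. Dclk1 (ENSMUSG00000027797) spans chr3:55149618-55446493 and Alox5ap (ENSMUSG00000060063) spans chr5:149196003-149227762, both on the plus strand, and their exons overlap only antisense genes that the table does not hold. Of all 50-base windows of the transcripts, the length of the reads, the share also found in transcripts of another gene was 0% for Sh2d6, 2.29% for Alox5ap, 3.48% for Avil, 3.55% for Trpm5, and 6.11% for Dclk1. Because it is not stated whether strand was used in counting, some reads of Tssc4 or Tsfm could have been counted for Trpm5 or Avil. Neither partner followed its member with diet, the mean normalised count (count divided by the DESeq2 size factor of its library) of Tssc4 being 631 ± 90.3 (SD, n = 5) at 0% RPS and 639 ± 59.7 at 10% RPS, and that of Tsfm 788 ± 100.5 and 855 ± 98.8.

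Sh2d6, Trpm5, and Avil varied together most closely between libraries, as described further on, and the DNA in front of each is shown for that reason. Each line gives the 250 bases before the start of the gene in RefSeq on the assembly GRCm38.p6, 5′ to 3′ on the strand of the gene, namely chr6:72520037-72520286 on the minus strand for Sh2d6, chr7:143094643-143094892 on the minus strand for Trpm5, and chr10:127000459-127000708 on the plus strand for Avil. Pou2f3 belongs to the POU family, which binds the octamer ATGCAAAT, and this octamer was searched on both strands. It was in none of the 3 windows and in 1.60% of the 250-base windows of 32851 RefSeq promoters. Capitals in the line for Avil mark matches on either strand to the first 7 letters of the octamer, ATGCAAA, a search added after the octamer gave no match. The first match began 115 bases and the second 15 bases before the start, and 4.12% of all windows held at least 1 such match.
Sh2d6: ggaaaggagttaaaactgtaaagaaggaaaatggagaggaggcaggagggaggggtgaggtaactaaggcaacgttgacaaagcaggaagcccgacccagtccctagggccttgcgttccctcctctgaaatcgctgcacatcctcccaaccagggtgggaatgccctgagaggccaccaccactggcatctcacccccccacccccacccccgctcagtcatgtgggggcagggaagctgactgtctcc
Trpm5: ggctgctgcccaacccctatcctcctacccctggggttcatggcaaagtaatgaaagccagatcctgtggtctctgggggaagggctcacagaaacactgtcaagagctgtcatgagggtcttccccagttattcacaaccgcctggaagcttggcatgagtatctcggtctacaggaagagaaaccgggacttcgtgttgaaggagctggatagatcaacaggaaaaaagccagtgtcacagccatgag
Avil: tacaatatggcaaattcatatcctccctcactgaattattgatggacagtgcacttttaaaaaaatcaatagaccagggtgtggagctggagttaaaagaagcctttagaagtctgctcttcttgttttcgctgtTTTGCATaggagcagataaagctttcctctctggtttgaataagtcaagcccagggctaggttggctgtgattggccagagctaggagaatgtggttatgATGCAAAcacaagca

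The levels of the 5 genes differed widely when set on a scale per length. In CPM (counts scaled to the library total) per kilobase of exon over all 20 libraries, Sh2d6 was highest at 12.8 ± 2.90 (SD), with a range of 7.98 to 19.0 that overlapped that of no other member. Avil followed at 4.67 ± 0.739 and Trpm5 at 3.01 ± 0.697, whose ranges overlapped each other. Dclk1, whose range met that of Trpm5, was at 1.74 ± 0.166 and Alox5ap was lowest at 0.759 ± 0.231, and the highest Alox5ap library (1.54) exceeded the lowest Dclk1 library (1.46). The place of Dclk1 depended on the length used, because its annotated exons add up to 21795 bases while its canonical transcript has 8110. With canonical lengths Dclk1 (4.68 ± 0.445) stood beside Trpm5 (4.67 ± 1.08) and Avil (5.24 ± 0.827), and Sh2d6 (15.7 ± 3.54) and Alox5ap (1.05 ± 0.320) kept their places. The lowest count behind any value was 60 for Alox5ap and 288 for the other members, so none was near the limit of detection.

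Alox5ap was the one member that met both thresholds of the study, which asked that the adjusted p not exceed 0.05 and that the level differ at least 1.5-fold, and it did so at 5% and at 10% RPS. Its normalised counts in the 5 libraries on 0% RPS were 103, 156, 66.4, 87.6, and 95.4. On 2% RPS they were 89.7, 80.3, 84.0, 85.6, and 86.9. On 5% RPS they were 64.0, 59.1, 61.7, 52.2, and 76.6, and on 10% RPS 64.7, 67.9, 69.7, 61.05, and 67.7. The libraries on 0% RPS were the most scattered, with 1 at 156 and 1 at 66.4. The 5 libraries on 2% RPS lay inside that range, 4 of 5 on 5% RPS lay below all of it, and 2 of 5 on 10% RPS did. Relative to 0% RPS the log2 fold change was -0.25 ± 0.183 (SE) at 2% RPS (adjusted p = 0.705), -0.70 ± 0.184 at 5% RPS (adjusted p = 0.0205), and -0.61 ± 0.185 at 10% RPS (adjusted p = 0.0289), which is a decrease of 1.62-fold and of 1.53-fold at the higher levels. All 3 starch diets together against 0% RPS gave -0.52 ± 0.148 (adjusted p = 0.0211), under 1.5-fold. Among all genes tested, 0% were called lower at 2% RPS, 0.103% at 5% RPS, 0.381% at 10% RPS, and 0.219% for any starch.

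The calls of Alox5ap depended on single libraries of both diets compared. Without replicate 2 of that diet, the library at 156, the log2 fold change was -0.49 at 5% RPS (adjusted p = 0.0445) and -0.41 at 10% RPS (adjusted p = 0.0860), so neither was 1.5-fold. With each library of the compared diets left out in turn, the call held in 4 of 10 fits at 5% RPS and in 4 of 10 at 10% RPS, and it was lost without replicate 2 or 5 on 0% RPS, without replicate 1, 2, or 3 on 5% RPS, and without replicate 1, 3, 4, or 5 on 10% RPS. DESeq2 gave no adjusted p without replicate 4 on 5% RPS. The quasi-likelihood test of edgeR called none of the 5 members in any contrast, with adjusted p values for Alox5ap of 0.0895 at 5% and 0.0707 at 10% RPS. It gave an unadjusted p under 0.05 to 1 member at 2%, 3 at 5%, and 4 at 10% RPS. Of the 12366 genes it tested, 1000 at 2%, 1962 at 5%, and 2230 at 10% RPS had such a p in either direction. By adjusted p with the fold threshold, edgeR called 0.097% of all genes lower at 10% RPS.

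Sh2d6 was 1.43-fold lower at 10% RPS than at 0% RPS, which passed the test but not the fold threshold. Its normalised counts were 755, 526, 554, 799, and 836 on 0% RPS, and 486, 512, 726.8, 664, and 648 on 2% RPS. They were 484, 588, 508, 570.5, and 613 on 5% RPS, and 495, 582, 380.1, 551, and 408 on 10% RPS. All 5 libraries on 5% RPS and all 5 on 10% RPS lay below the mean of 0% RPS (694 ± 144), and 3 of the latter lay below every library on 0% RPS. The log2 fold change was -0.19 ± 0.153 at 2% (adjusted p = 0.734), -0.33 ± 0.153 at 5% (adjusted p = 0.249), and -0.52 ± 0.153 at 10% RPS (adjusted p = 0.0250). The adjusted p at 10% RPS passed in 5 of 10 fits with 1 library left out and missed without replicate 1, 4, or 5 on 0% RPS or replicate 3 or 5 on 10% RPS, with values up to 0.128.

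Trpm5, the channel through which the sensing cascade depolarises the cell, had the pattern of Sh2d6 with a weaker test. Its normalised counts were 525, 556, 561, 801, and 715.4 on 0% RPS, and 409, 436, 598, 543, and 520.1 on 2% RPS. They were 434, 432, 515, 558, and 523 on 5% RPS, and 401, 568, 338, 565, and 377 on 10% RPS. Every library of the 3 starch diets lay below the mean of 0% RPS (632 ± 120), although 5 of these 15 lay within its range. The log2 fold change was -0.33 ± 0.159 at 2% (adjusted p = 0.531), -0.36 ± 0.159 at 5% (adjusted p = 0.222), and -0.49 ± 0.159 at 10% RPS (adjusted p = 0.0478), a decrease of 1.40-fold. The adjusted p at 10% RPS missed 0.05 without replicate 4 or 5 on 0% RPS or replicate 1, 3, or 5 on 10% RPS, with values up to 0.200.

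Avil and Dclk1 passed in no contrast. The normalised counts of Avil were 534, 449, 337, 516, and 534 on 0% RPS, 404, 387, 493, 443, and 427 on 2% RPS, 380.2, 393, 406, 453, and 444 on 5% RPS, and 401, 488, 335, 389, and 354 on 10% RPS. All but 1 of the 15 libraries on starch lay within the range of 0% RPS, and the log2 fold change at 10% RPS was -0.27 ± 0.125 (adjusted p = 0.212). Dclk1 had 1124, 974, 927, 1066, and 1069 normalised counts on 0% RPS, 1062, 932, 1102, 1221, and 872 on 2% RPS, 1036, 889, 1091, 956, and 1014 on 5% RPS, and 1068, 1097, 954, 1051, and 1010.0 on 10% RPS. The diet means of Dclk1 lay between 997 and 1038, and its log2 fold change at 10% RPS was 0.01 with a 95% interval from -0.16 to 0.18, so a change of 1.5-fold either way was outside the interval.

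**Figure D1:**
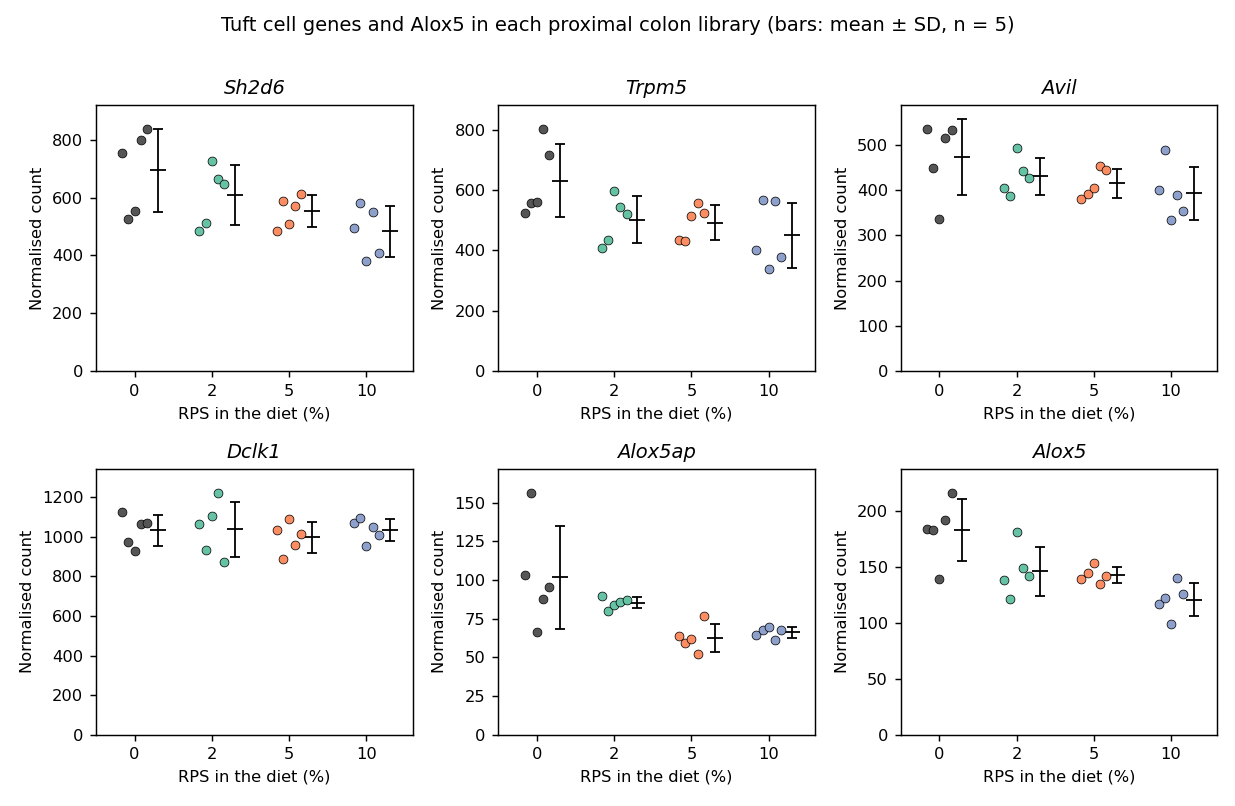
Normalised counts of the 5 tuft cell genes and of Alox5 in each library (points, 5 per diet) against the percentage of RPS in the diet, with the mean and SD beside the points. Sh2d6, Trpm5, Avil, Alox5ap, and Alox5 have a lower mean on 10% RPS than on 0% RPS, each with libraries that overlap between these diets. Dclk1 stays near 1000 on all 4 diets.

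**Figure D2:**
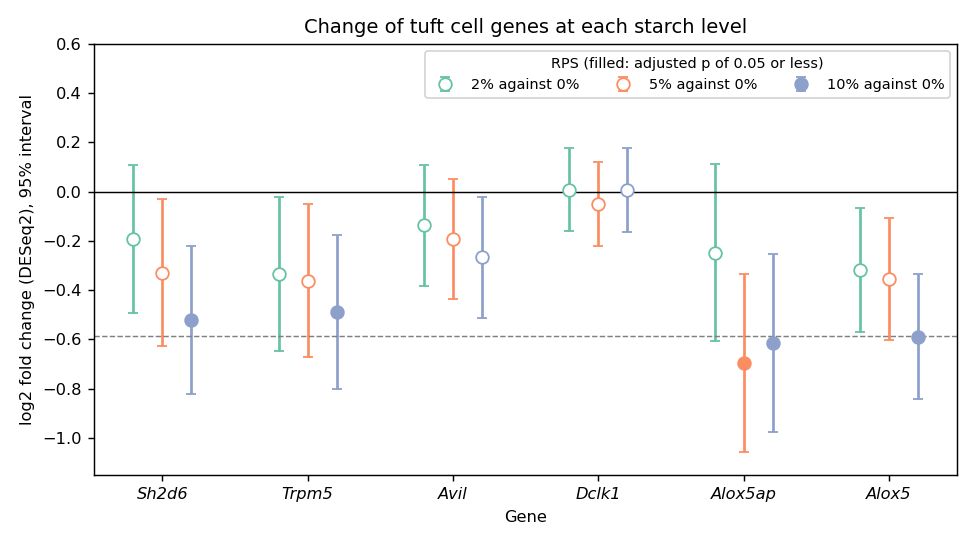
Log2 fold change of the 5 tuft cell genes and of Alox5 at 2, 5, and 10% RPS against 0% RPS, with 95% intervals, where filled points have an adjusted p of 0.05 or less and the dashed line marks a 1.5-fold decrease. Only Alox5ap, at 5 and 10% RPS, and Alox5, at 10% RPS, are filled and lie beyond the line.

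With the fold threshold set aside, 3 of the 5 members (Alox5ap, Sh2d6, and Trpm5) were lower at 10% RPS by adjusted p, against 1.93% of all genes lower and 2.76% higher. On the same criterion none of the 5 passed in edgeR, where the adjusted p was 0.0812 for Sh2d6 and 0.110 for Trpm5. With only the diets compared in the DESeq2 fit, the adjusted p was 0.134 for Alox5ap, 0.0763 for Sh2d6, and 0.138 for Trpm5. Without the 3 libraries numbered apart from the rest in the labels (replicate 5 on 2% RPS and replicates 4 and 5 on 10% RPS), it was 0.185, 0.129, and 0.112. At 5% RPS, 1 member passed on adjusted p alone, against 0.573% of all genes lower. The median log2 fold change of the 5 members was -0.19 at 2%, -0.33 at 5%, and -0.49 at 10% RPS, where the medians of all genes tested were -0.01, -0.01, and 0.00. The 3 contrasts share the libraries on 0% RPS, so these medians are not independent of each other. A straight trend over the percentage of RPS passed for Sh2d6, which decreased by 0.05 ± 0.014 log2 units per percent RPS (adjusted p = 0.0182), and for Alox5ap, which decreased by 0.06 ± 0.019 (adjusted p = 0.0322). It did not pass for Trpm5 (adjusted p = 0.0904), Avil (adjusted p = 0.212), or Dclk1 (adjusted p = 0.990). Over all genes, 1.89% passed the trend with a decrease and 2.4% with an increase. The trend of Alox5ap held in 14 of 20 fits with 1 library left out and that of Sh2d6 in 16 of 20, and neither passed when the 0% diet was left out. No member was called between starch levels, where 0% of all genes were called between 5% and 2% RPS, 0.0557% between 10% and 2% RPS, and 0.00796% between 10% and 5% RPS.

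Whether the other members changed differently from Dclk1 was tested within libraries, on the log2 ratio of each to Dclk1, a comparison added after the values were seen. At 10% RPS the ratio to Dclk1 decreased by 0.52 for Sh2d6 (exact permutation p = 0.00794, two-sided, the smallest that 252 assignments of 10 libraries allow), by 0.57 for Alox5ap (exact permutation p = 0.0159), by 0.51 for Trpm5 (exact permutation p = 0.0317), and by 0.27 for Avil (exact permutation p = 0.0317). In each of these 4 ratios, 5 of 5 libraries on 10% RPS lay below the mean of 0% RPS. The ratios use the same libraries as the fold changes above and are not independent of them. Adjusted over the 12 ratios computed at the 3 starch levels, these exact permutation p values were 0.0635, 0.0635, 0.0762, and 0.0762, so none of the differences from Dclk1 passed the correction.

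Sh2d6, Trpm5, and Avil varied together among libraries of the same diet, and Alox5ap did not vary with them. With each diet mean removed from log2(normalised count + 1), the Pearson correlation over 20 libraries was 0.81 between Avil and Sh2d6 (Spearman 0.85) and 0.78 between Trpm5 and Sh2d6 (Spearman 0.77). It was 0.65 between Trpm5 and Avil (Spearman 0.70) and 0.54 between Dclk1 and Avil (Spearman 0.60). Two-sided permutation p values from 100000 shuffles within diets, adjusted over the 10 pairs, were 0.0008, 0.0061, 0.0186, and 0.0202 for Pearson and 0.0009, 0.00735, 0.0112, and 0.0213 for Spearman. Without the 2 libraries farthest from the median of the first gene, r was 0.83, 0.74, 0.56, and 0.68. The first 3 of these pairs had a positive r within each of the 4 diets, and Dclk1 with Avil in 3 of 4. Dclk1 with Trpm5 (r = 0.36) and with Sh2d6 (r = 0.40) did not pass. The r of Alox5ap with the other members ran from -0.18 to 0.25, with adjusted permutation p of at least 0.659. Its Spearman values ran from -0.42 with Trpm5 to 0.18 with Dclk1, with adjusted permutation p of at least 0.134. With Trpm5 the r of Alox5ap was negative within each of the 4 diets. On 10% RPS, for example, replicates 2 and 4 were the highest and replicate 3 the lowest for both Sh2d6 and Trpm5, while Alox5ap spanned only 61.05 to 69.7 there.

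**Figure D3:**
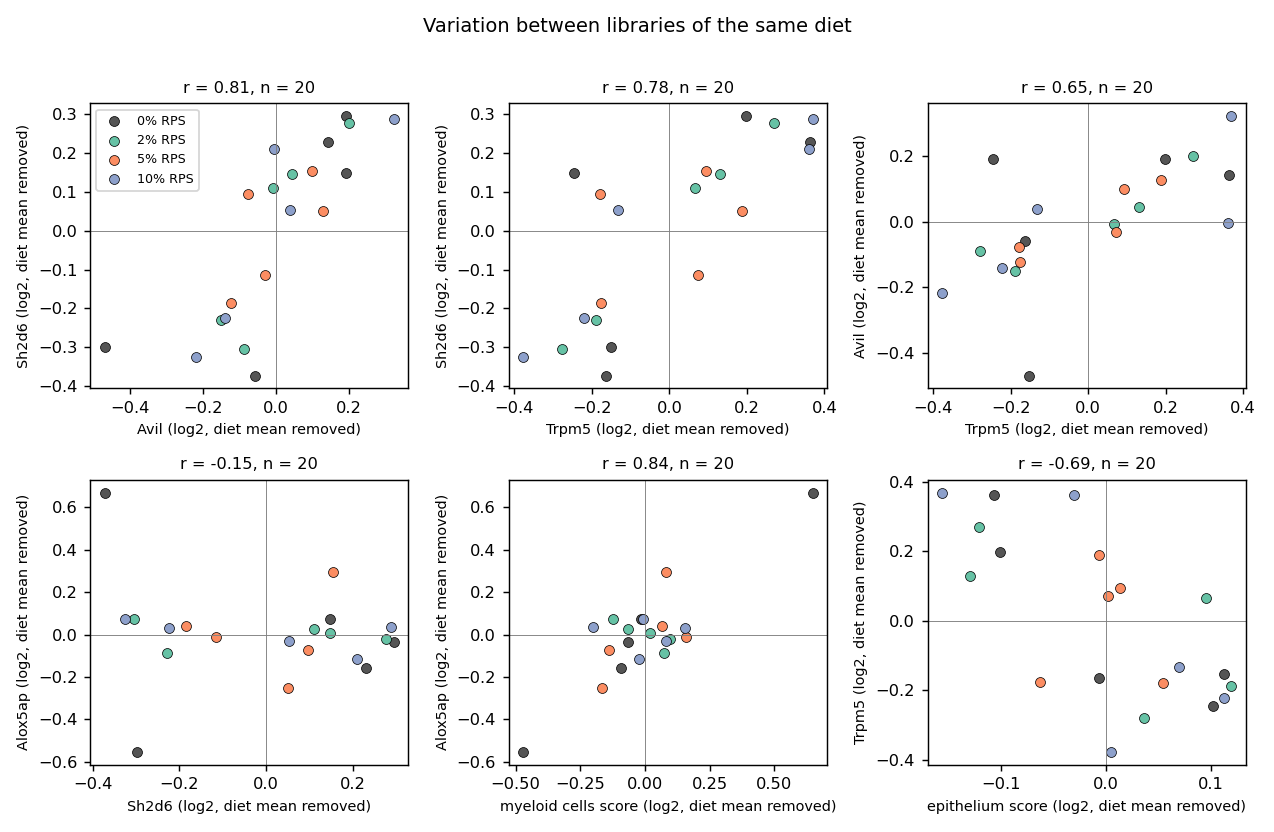
Log2 levels with the mean of each diet removed, 1 point per library and 1 colour per diet, for 4 pairs of tuft cell genes and for 2 pairs of a tuft cell gene with a marker score. Avil, Trpm5, and Sh2d6 rise together, Alox5ap does not follow Sh2d6, 2 libraries on 0% RPS carry the relation of Alox5ap to the myeloid score, and Trpm5 is low where the epithelium score is high.

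Of the other cell types in the segment, markers of epithelium, goblet cells, enteric neurons and glia, myeloid cells, fibroblasts, and smooth muscle were set beside these results. The summed normalised count of 6 epithelial markers (Epcam, Vil1, Cdh1, Krt8, Krt20, and Cldn7), all present, was 233220 to 277493 on 0% RPS. It was 246468 to 327552 on 2% RPS, 277810 to 298833 on 5% RPS, and 253107 to 318752 on 10% RPS. By adjusted p, 2 of the 6 were higher at 10% RPS. The r of the epithelium score with diet means removed was -0.69 for Trpm5, -0.60 for Dclk1, -0.59 for Avil, -0.53 for Sh2d6, and -0.11 for Alox5ap. None of 40 such relations, of 5 members with 8 marker lists, passed after adjustment (smallest adjusted permutation p 0.0894). With the epithelium score as a covariate in DESeq2, the log2 fold change at 10% RPS was -0.24 for Sh2d6, -0.10 for Trpm5, -0.03 for Avil, 0.17 for Dclk1, and -0.56 for Alox5ap, none with an adjusted p under 0.660, and calls over all genes dropped from 113 to 13. Since this score differs between the diets, its part in the decreases was not tested. Goblet cell markers (5 of 5 present) summed to 409192 to 728157 on 0% RPS and 517469 to 966110 on 10% RPS. All 5 had a higher fitted level at each starch level, with a median log2 fold change of 0.46 at 10% RPS, where 1 passed by adjusted p. With the 8 markers of enteric neurons and glia the r of Dclk1 was 0.55 (adjusted permutation p = 0.0894). All 8 had a lower fitted level at 10% RPS, where none passed. In the trend over RPS, 1 of the 8 passed with a decrease, against 1.89% of all genes. Smooth muscle as the covariate left Sh2d6 at -0.57 (adjusted p = 0.00543) and Trpm5 at -0.55 (adjusted p = 0.0108) at 10% RPS.

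Myeloid cells are a known source of Alox5ap and Alox5. The summed count of 8 myeloid markers (Lyz2, Cd68, Csf1r, Adgre1, Itgam, C1qa, Fcer1g, and Tyrobp), all present and none at 0, was 3110, 5529, 2089, 2959, and 2688 on 0% RPS, 2399 to 3307 on 5% RPS, and 2659 to 3458 on 10% RPS. All 8 had a lower fitted level at 10% than at 0% RPS and none passed. Replicate 2 on 0% RPS, the highest library for Alox5ap, was also the highest for these markers and for 3 markers of B and plasma cells (11950, against 1590 to 5406 in the other 19 libraries). On 0% RPS this replicate was the highest of all libraries for fibroblast markers (39617) and smooth muscle markers (268552) too. Replicate 3 of that diet was the lowest for Alox5ap on 0% RPS and the lowest of all libraries for myeloid markers. The r of Alox5ap with the myeloid score was 0.84 (Spearman 0.43, adjusted permutation p = 0.0894 and 0.222) and 0.32 without the 2 libraries farthest from the median, so it rested on those libraries. With fibroblast markers it was 0.76 and 0.29 without 2 libraries. All 5 fibroblast markers had a lower fitted level at each starch level, and none passed. Their median log2 fold change was -0.39 at 5% and -0.32 at 10% RPS. With 6 smooth muscle markers the r of Alox5ap was 0.67 (Spearman 0.57, adjusted permutation p = 0.0894 and 0.0926) and 0.66 without 2 libraries. All 6 muscle markers had a lower fitted level at 5% and at 10% RPS, none passed, and their sum was 121326 to 268552 on 0% RPS, 110528 to 171625 on 5% RPS, and 124763 to 211476 on 10% RPS. With the smooth muscle score as a covariate Alox5ap was at -0.53 (adjusted p = 0.0371) at 5% and -0.49 (adjusted p = 0.0368) at 10% RPS, both under 1.5-fold, and the part of muscle in the decrease was not tested. With the myeloid score as a covariate, an alternative chosen after seeing the data, Alox5ap was at -0.48 (adjusted p = 0.0355) at 5% and -0.49 (adjusted p = 0.0155) at 10% RPS, both under 1.5-fold. Of the lists for neutrophils and T cells the table held no gene, and for mast cells and eosinophils it held only Kit and Siglecf, so the part of these cells was not tested.

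The wider tuft programme was followed in 5 lists with 40 of 59 genes in the table. In the eicosanoid list, all 6 genes had a lower fitted level than on 0% RPS at each starch level, and 1, Alox5, was called at 10% RPS. Over all genes 52.3% had a lower fitted level at 2% RPS, 52.5% at 5% RPS, and 50.004% at 10% RPS, and 0.381% were called lower at 10% RPS. Alox5, the partner enzyme of Alox5ap, had 183, 182, 139, 191, and 216 normalised counts on 0% RPS, 138, 121, 181, 149, and 141 on 2% RPS, 139, 144, 153, 134, and 142 on 5% RPS, and 117, 122, 98.8, 139.5, and 126 on 10% RPS. On 10% RPS 4 of 5 libraries lay below all those on 0% RPS. Its log2 fold change at 10% RPS was -0.59 ± 0.129 (adjusted p = 0.00111), a decrease of 1.505-fold that edgeR also called (adjusted p = 0.0307), and its trend passed (adjusted p = 0.00311). With the epithelium score as a covariate the log2 fold change of Alox5 at 10% RPS was -0.37 (adjusted p = 0.655). With the smooth muscle score it was -0.577 (adjusted p = 0.00162) and with the myeloid score -0.569 (adjusted p = 0.00131), both under 1.5-fold. The most abundant genes of the list per length were Ptgs1, a cyclooxygenase of prostaglandin synthesis, at -0.39 ± 0.144 (adjusted p = 0.0887), and Pla2g4a, the phospholipase that frees arachidonic acid, at -0.11 ± 0.158 (adjusted p = 0.734).

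In the sensing cascade, 4 of 11 genes had a row, 2 of them with a lower fitted level at 10% RPS, and none passed with a decrease. The inositol trisphosphate receptor Itpr2, which releases calcium from stores, rose at 10% RPS on adjusted p alone (log2 fold change 0.32 ± 0.0798, adjusted p = 0.00602) and in the trend (adjusted p = 0.0093), against 2.76% of all genes higher by adjusted p alone, 0.536% higher with the fold threshold, and 2.4% with an increasing trend. Neither held in edgeR, with adjusted p values of 0.0510 at 10% RPS and 0.0502 for the trend. Its 5 libraries on 10% RPS, at 1001 to 1237 normalised counts, all lay above the 832 to 942 of 0% RPS. Itpr3, the isoform of the taste cascade, was at 0.14 ± 0.0778 (adjusted p = 0.318). The remaining 2 genes of the list with a row, named here after their values were seen, were the short-chain fatty acid receptor Ffar3 (-0.34 ± 0.216, adjusted p = 0.380) and the taste G protein subunit Gnat3 (-0.29 ± 0.212, adjusted p = 0.459). Of 7 transcription regulators none passed, among them Atoh1, the secretory lineage factor (0.44 ± 0.175, adjusted p = 0.125), and Hnf4a, an epithelial factor (-0.03 ± 0.0801, adjusted p = 0.883). Of 17 other signature genes none passed, and 14 had a lower fitted level at 10% RPS, with a list median of -0.20 on the log2 scale. The most abundant of these were Cd24a (0.30 ± 0.130, adjusted p = 0.169) and Anxa4 (0.16 ± 0.0643, adjusted p = 0.127), which other epithelial cells also express. Of 14 genes of the type 2 circuit, 6 had a row and none passed, including Stat6 (0.00 ± 0.0877) and Il13ra1 (0.08 ± 0.0877), which carry the interleukin 13 signal. Only 1 of these 6 had a lower fitted level at 10% RPS. Their median was 0.09 and the highest value was 0.79 on the log2 scale. Over the 40 genes, 28 had a lower fitted level at 10% RPS, where 6161 of 12321 genes over the whole table did, and the median was -0.13.

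**Figure D4:**
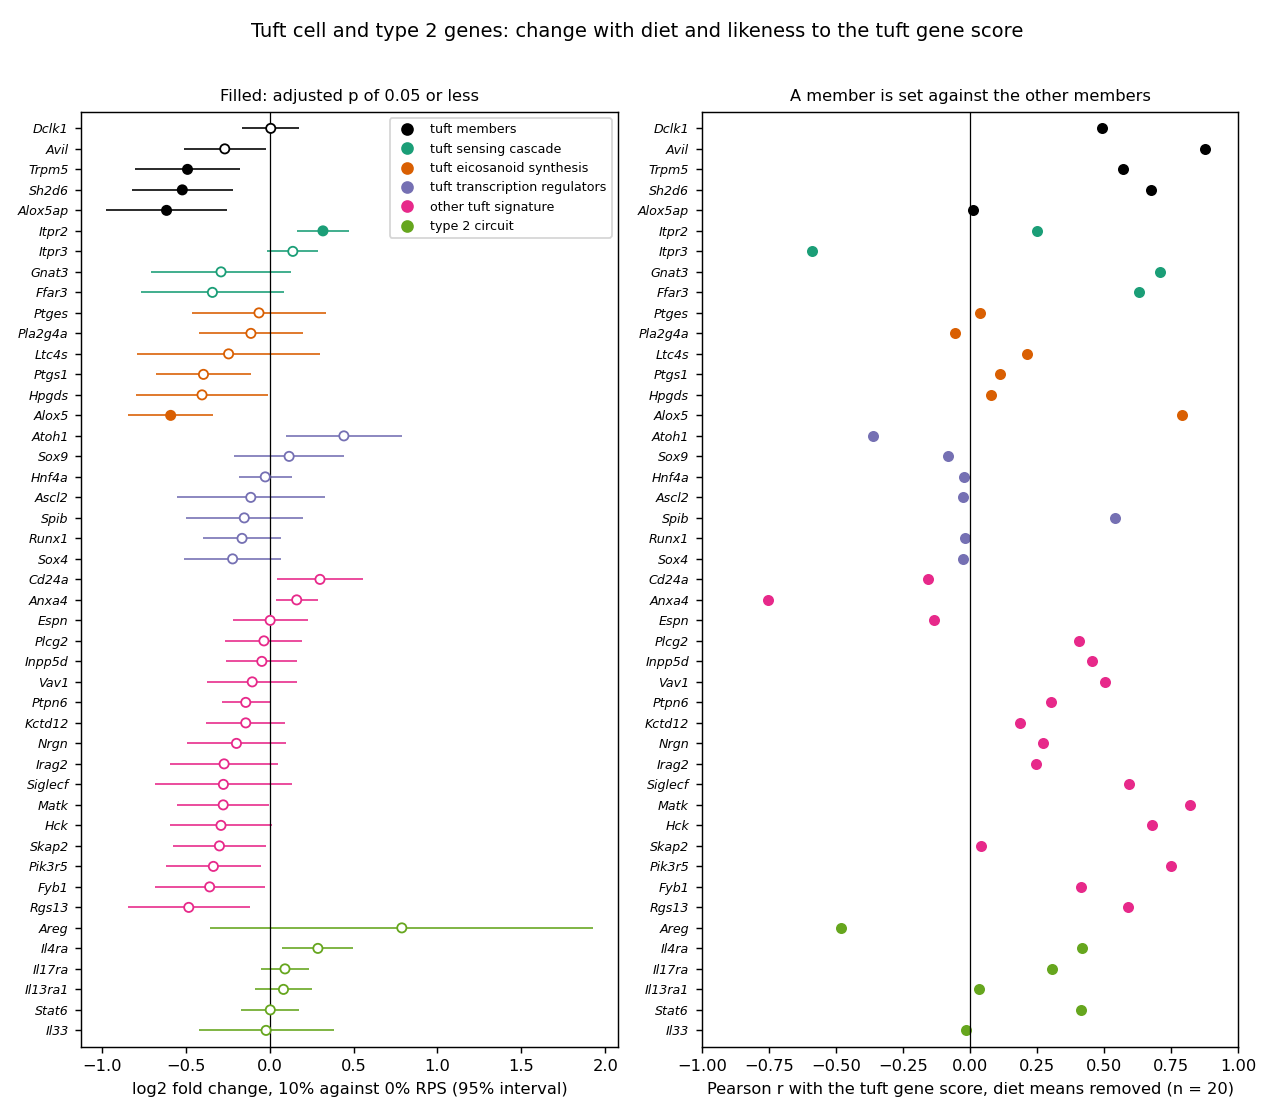
Left, log2 fold change at 10% against 0% RPS with its 95% interval for the 5 tuft cell genes and 40 genes of wider lists, filled where the adjusted p is 0.05 or less. Right, the Pearson r over 20 libraries of each gene with the tuft gene score after diet means were removed. Alox5ap is near 0, and Avil, Matk, Alox5, Pik3r5, and Gnat3 are above 0.7. Other listed genes are negative, the lowest being Anxa4 (-0.75) and Itpr3 (-0.59).

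The genes whose variation was most like that of the members were found by the r of each gene with a tuft gene score, the mean z score of the 5 members with diet means removed, over 20 libraries. Among the 11974 other genes whose normalised counts averaged 50 or more, the 10 highest were Ip6k1 (r = 0.90), Hsbp1l1 (0.84), Araf (0.83), Matk (0.82), AI837181 (0.81), Fam193b (0.81), Bbs2 (0.80), 4933439C10Rik (0.80), Ctss (0.80), and Cbx7 (0.79). Matk, a tyrosine kinase, was in the tuft signature list, and the others were in no list. The median r over all genes was 0.01, and 4.31% reached 0.5. In the other signature list the median was 0.41, 6 of 17 reached 0.5, and the lowest was -0.75 (Anxa4). Alox5 (0.79) ranked 11. The median was 0.09 in the eicosanoid list, where 1 of 6 reached 0.5, and -0.02 among the transcription regulators, where 1 of 7 was positive. In the sensing cascade it was 0.44, with 3 of 4 positive and Itpr3 lowest at -0.59. In the type 2 circuit it was 0.17, with 4 of 6 positive and Areg lowest at -0.48. The 8 markers of enteric neurons and glia, which are not tuft cell genes, had a median of 0.39 and were all positive. Taken against the score of the other 4, the members themselves reached 0.88 for Avil, 0.68 for Sh2d6, 0.57 for Trpm5, 0.49 for Dclk1, and 0.01 for Alox5ap. These r values describe libraries that also share depth and tissue makeup, and the 6 epithelial markers had a median of -0.48. Of the 10 genes, Cbx7 also fell at 10% RPS by adjusted p (log2 fold change -0.46, adjusted p = 0.0157).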

How the data were processed

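RNA sequencing of the PC was done on stranded mRNA libraries read as single ends of 50 bases. The authors trimmed low-quality bases, discarded reads with more than 2 ambiguous bases and mapped the rest to GRCm39 with CLC Genomics Workbench. The deposited values are raw counts per gene, with no normalisation or pooling of replicates. The annotation, the use of strand, the rule for reads with several matches, and the gene filter are not given in the sources used here. Symbols were taken from GENCODE release M39, which held 12682 of 12701 identifiers.

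DESeq2 (version 1.42.0) in R (version 4.3.3) was fitted to all 20 libraries with diet as the only term, and p values were adjusted over all genes by the Benjamini-Hochberg method. All adjusted p values of single genes are from DESeq2 unless edgeR (version 4.0.16) is named. Standard errors and 95% intervals are those of the fit. The scripts were tested on simulated counts before use. Replicates were numbered in the order of the labels. The members, lists, and tests were chosen with earlier results of these data known. Genes named from the wider lists were the 2 highest per length in each list and every gene called against 0% RPS. The alternatives were edgeR, TMM factors, a low-count filter, independent or Cook filtering switched off, other fold thresholds, only the diets compared, a covariate (epithelium, smooth muscle, or myeloid score, or 1 surrogate variable from sva version 3.50.0), no 0% diet in the trend, a fit without the 3 libraries (2% replicate 5, 10% replicates 4 and 5) numbered apart from the rest in the labels, and leaving out each library in turn. For correlations they were TMM-normalised log2 CPM and diet means kept. Figures were drawn with matplotlib (version 3.10.9).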

Additional observations from a re-analysis of the deposited data

How the results depend on the processing

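No paired analysis was possible because no replicate number in the labels links libraries of different diets. The direction and calls of the members held under TMM factors, the low-count filter, and independent or Cook filtering switched off. Calls at 5% RPS went from 1 member to 0 under edgeR, a 2-fold threshold, only the diets compared, and each of 4 covariates (epithelium, smooth muscle, or myeloid score, or 1 surrogate variable, under which DESeq2 gave Alox5ap no adjusted p). Calls at 10% RPS went from 1 to 0 under the same settings and without the 3 libraries numbered apart, and to 3 (Trpm5, Alox5ap, and Sh2d6) with no fold threshold, which also gave 1 (Alox5ap) for any starch. Trend calls went from 2 to 0 under edgeR, with the epithelium score, without the 0% diet, and without the 3 libraries. With 1 library left out, calls of members ran from 0 to 1 at 5%, 0 to 3 at 10%, 0 to 1 for any starch, and 0 to 4 for the trend. Calls over all genes also shifted in these fits, from 24 of 12554 to 104 of 12327 at 5% RPS. They ran from 62 of 12560 to 201 of 12327 at 10% RPS. For any starch they ran from 36 of 12554 to 112 of 12568, and for the trend from 178 of 12544 to 807 of 12560. The epithelium score turned the sign of values that passed no test, to 0.097 for Dclk1 and 0.031 for Avil at 5% RPS and to 0.059 for Avil and 0.032 for Sh2d6 at 2% RPS. Dclk1, near 0, ran from -0.057 to 0.066 at 2% RPS and from -0.030 to 0.038 at 10% RPS with 1 library left out. With diet means kept, the r of Dclk1 and Avil was 0.48 (adjusted permutation p = 0.076), and that of Alox5ap turned to 0.29 with Trpm5 and 0.35 with Sh2d6. With 1 library left out, r ran from 0.47 to 0.63 for Dclk1 and Avil, from -0.11 to 0.38 for Dclk1 and Alox5ap, from -0.29 to 0.49 for Avil and Alox5ap, and from -0.49 to 0.27 for Alox5ap and Sh2d6. Over all genes, 113 were called at 10% RPS by DESeq2 and 40 by edgeR, and 55 and 7 at 5% RPS. The causes of these shifts were not tested. Alox5ap had 60 to 150 counts per library and the other members at least 288.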
